A study of Mus musculus with 10 samples.

Results

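Carbonic anhydrases were compared between kidneys of mice kept at 4200 m and kidneys of mice kept at 400 m. The genes described are the 10 rows of the deposited expression table named Car2, Car3, Car4, Car5b, Car8, Car9, Car12, Car13, Car14 and Car15, chosen by name from a table of 55952 genes. The 6 other carbonic anhydrase genes of the table, Car1, Car5a, Car6, Car7, Car10 and Car11, are given beside them. The hypoxia group was 5 kidney libraries of C57BL/6 mice, a common inbred strain, housed at 4200 m for 30 days. The control group was 5 kidney libraries of mice of the same strain housed at 400 m for the same 30 days. No genetic change was made in either group, and the labels give neither age nor sex. Altitude and the site of housing cannot be told apart, since each group lived at its own site. Whether every library stems from a separate mouse is not stated. The p-values set the difference between groups against the scatter of these libraries within groups. They would be too small if libraries shared a mouse.

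Carbonic anhydrases interconvert carbon dioxide and water with bicarbonate and a proton. In the kidney they let the tubule reclaim filtered bicarbonate and excrete acid, with some forms in the cytosol, some at the outer face of the cell membrane and some in mitochondria. Car9 is also known as a classic target of the hypoxia-inducible factor HIF.

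Expression was measured by RNA sequencing of whole kidney tissue and is given as FPKM, fragments scaled to gene length and library size, so that levels of different genes can be set side by side. The libraries held 16561672 to 17845464 reads assigned to genes, and a gene of 1 kb needed 0.165 to 0.183 FPKM to rest on 3 reads. The labels call every sample kidney, although their extraction text speaks of the retina. Markers of the proximal tubule, the main reabsorbing segment, summed to 1936 to 3721 FPKM in hypoxia and 3769 to 4807 FPKM in controls. Of these 12 markers 1, Acy3, passed the gene test (lower), and their median log2 fold change was -0.16. Without hypoxia replicates 4 and 5, which are described next, 2 were lower (Acy3 and Slc5a2) and the median was 0.07. Among all tested genes 7.79% were lower, or 7.75% without those 2 libraries. Hypoxia replicates 4 and 5 stood apart from the other 8 libraries. Hypoxia replicate 5 had summed B cell markers of 365.5 FPKM, among them Cd79b at 143.3 and Cd79a at 105.5 FPKM, against at most 2.39 FPKM in any other library, and red cell markers of 6699 FPKM against at most 674.5 FPKM. Hypoxia replicate 4 had adrenal cortex markers of 1067 FPKM, with Hsd3b1 at 371.8 and Cyp21a1 at 245.6 FPKM, against at most 14.2 FPKM elsewhere, and fat tissue markers of 760.9 FPKM against at most 318.7 FPKM. The results for the carbonic anhydrases are therefore given with and without these 2 libraries. In whole tissue, fewer cells of a type and less RNA per cell cannot be told apart.

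A pair of upstream sequences is shown first because Car9 and Car14, the 2 of the 10 genes with the largest positive log2 fold changes, share letters there. Each line gives the 30 bases just before the RefSeq transcription start (GRCm38.p6), read 5′ to 3′ on the gene's own strand. Capitals mark a match to the HIF core motif ACGTG, here read on the opposite strand. Car9 lies at chr4:43506996-43507025 (plus strand) and Car14 at chr3:95904686-95904715 (minus strand).
Car9: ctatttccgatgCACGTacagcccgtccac
Car14: agcccaggcaccacccccctcctCACGTac

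The 2 forms searched were ACGTG and GCGTG, on both strands in the 250 bases before the start. RefSeq gave such a window for 6 of the 10 genes (Car4, Car5b, Car9, Car12, Car14 and Car15), and 3 of them held a match. Of all 32851 promoter windows in the table, 38.6% held either motif, 16.6% held ACGTG and 28.2% held GCGTG, with some holding both. A match to ACGTG within 30 bases of the start was found in 2.43% of all windows. The match began 18 bases before the start in Car9 and 7 bases before it in Car14. In both genes it was part of the 7 letters CACGTAC, which 0.721% of all windows held on either strand. This shared stretch and the 30-base window were picked after the sequences were seen. The gene span in the deposited table begins 60 bases before the RefSeq start for Car9 and 6 bases before it for Car14. The Car9 match therefore lies inside that span. The Car14 match, from 95904688 to 95904692, lies inside it but for the base beyond its edge at 95904691. A match is a description of letters and not evidence that a factor binds there.

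The upstream windows of Car5b and Car4 are shown as well, with matches to either form in capitals. Both genes were called lower without hypoxia replicates 4 and 5, but only Car5b over all libraries. Car5b, at chrX:164028011-164028260 on the minus strand, held 5 matches to GCGTG, more than Car9 or Car14 with 1 match each. The matches before Car9 and Car14 were to ACGTG, and those before Car5b to GCGTG. Whether they bear on the levels of these genes was not tested. Car4, at chr11:84957504-84957753 on the plus strand, held none of either motif.
Car5b: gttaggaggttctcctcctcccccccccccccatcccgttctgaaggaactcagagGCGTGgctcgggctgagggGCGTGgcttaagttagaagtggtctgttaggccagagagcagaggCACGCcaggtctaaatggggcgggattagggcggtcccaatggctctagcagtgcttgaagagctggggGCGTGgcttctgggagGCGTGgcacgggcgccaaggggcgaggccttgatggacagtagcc
Car4: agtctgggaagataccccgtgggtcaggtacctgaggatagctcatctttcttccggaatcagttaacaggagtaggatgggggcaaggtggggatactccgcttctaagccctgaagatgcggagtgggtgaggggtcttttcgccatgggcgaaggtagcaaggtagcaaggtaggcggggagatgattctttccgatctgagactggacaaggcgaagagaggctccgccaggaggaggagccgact

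The family was dominated by a few genes. In hypoxia the highest means were those of Car2 at 180.5 ± 20.9, Car3 at 64.3 ± 67.7, Car4 at 55.7 ± 13.4 and Car14 at 45.0 ± 12.9 FPKM (SD, n = 5), with Car3 above Car4 in only 2 of 5 libraries. In controls the mean level ran from Car2, the cytosolic form, at 186.6 ± 24.4 FPKM, through Car4 at 85.4 ± 11.01, Car3 at 43.9 ± 15.2, Car12 at 43.7 ± 6.60, Car14 at 28.6 ± 4.97 and Car5b at 18.3 ± 0.842 FPKM (SD, n = 5), to Car9, Car8, Car13 and Car15 between 3.27 and 0.592 FPKM. Most neighbours in this order kept it in every control library. The exceptions were Car3, above Car12 in 3 of 5, Car9, above Car8 in 4 of 5, and Car8, above Car13 in 4 of 5. In hypoxia Car14 was above Car12 in 3 of 5 libraries, whereas Car12 was above Car14 in 5 of 5 control libraries. The 10 genes summed to 349.4 to 544.1 FPKM in hypoxia and 328.3 to 477.1 FPKM in controls, so the summed levels overlapped. All 10 genes passed the filter on low values, an average over all libraries of 0.5 FPKM or more.

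**Figure D1:**
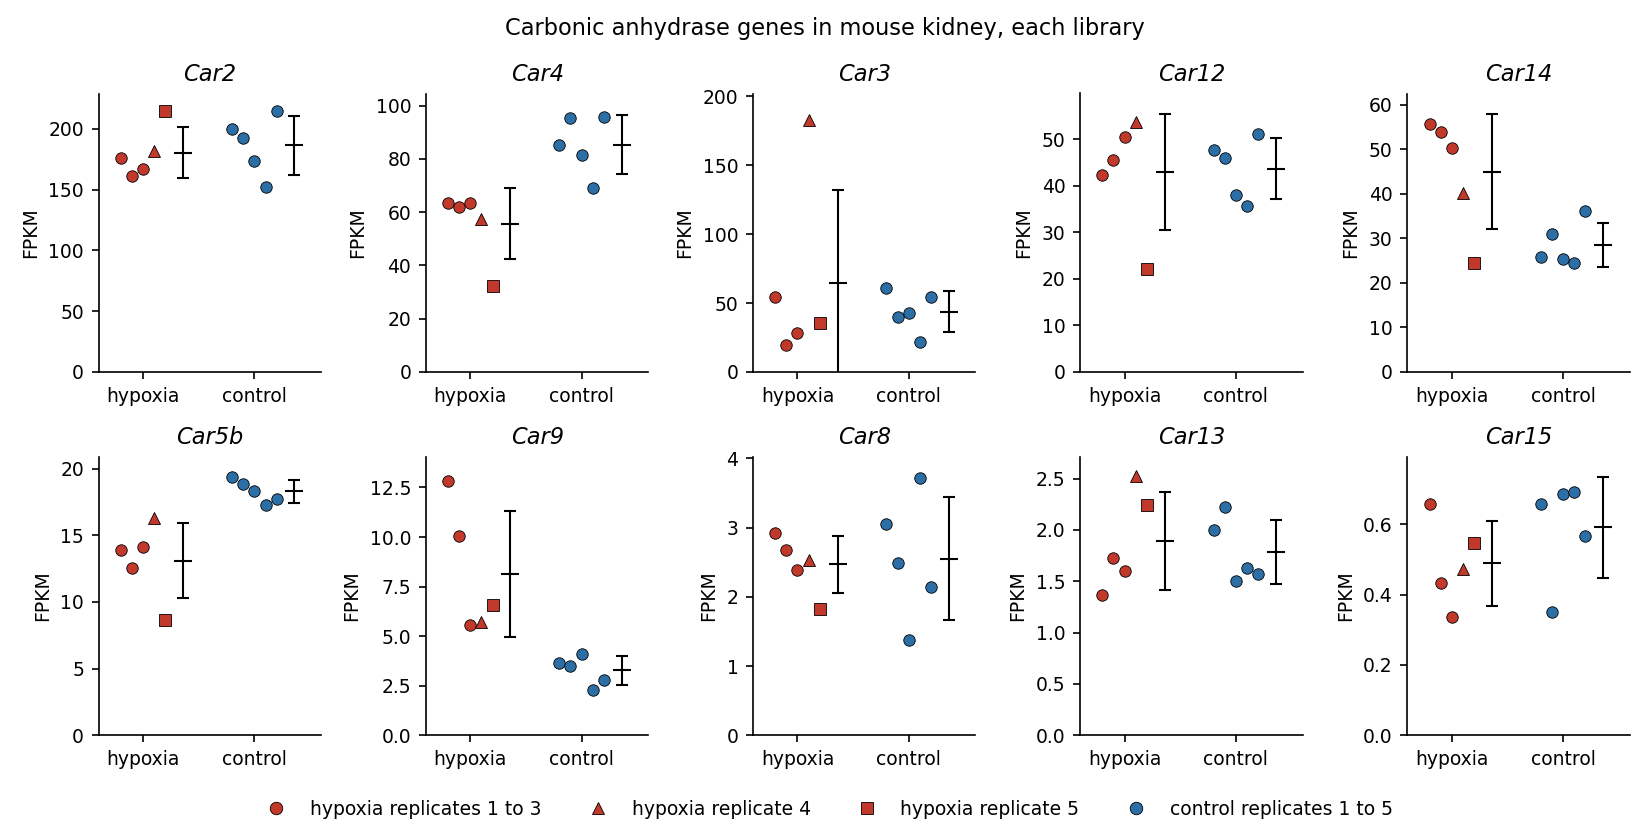
Level in FPKM (vertical axes, each starting at 0) of the 10 carbonic anhydrase genes in each hypoxia (left) and control (right) library, with the mean and SD of 5 libraries as a bar (the lower end of the Car3 bar is cut off at 0). Car9 was higher and Car4 and Car5b were lower in every hypoxia library than in any control library, while Car3 stood out at 183.1 FPKM in hypoxia replicate 4.

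Differences were tested with limma on log2(FPKM + 0.5) over all 15264 genes that passed the filter, with Benjamini-Hochberg adjustment over all of them and a threshold of 0.05. A fold change on this scale understates the change of low genes. Of the 10 carbonic anhydrases, 1 was higher (Car9) and 1 lower (Car5b). Among all tested genes 11.5% passed, 3.66% higher and 7.79% lower. Without hypoxia replicates 4 and 5, 2 were higher (Car9 and Car14) and 2 lower (Car4 and Car5b), where 12.3% of 14724 tested genes passed, 4.53% higher and 7.75% lower. The median log2 fold change of the 10 genes was -0.02, against 0.012 over all tested genes. With hypoxia replicates 4 and 5 left out it was -0.14, against -0.00046 over all genes. The 2 groups did not overlap for 3 of the 10 genes (Car4, Car5b and Car9), as for 14.2% of all tested genes. Leaving out hypoxia replicates 4 and 5, they did not overlap for 4 (Car14 as well), as for 21.5% of genes.

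**Figure D2:**
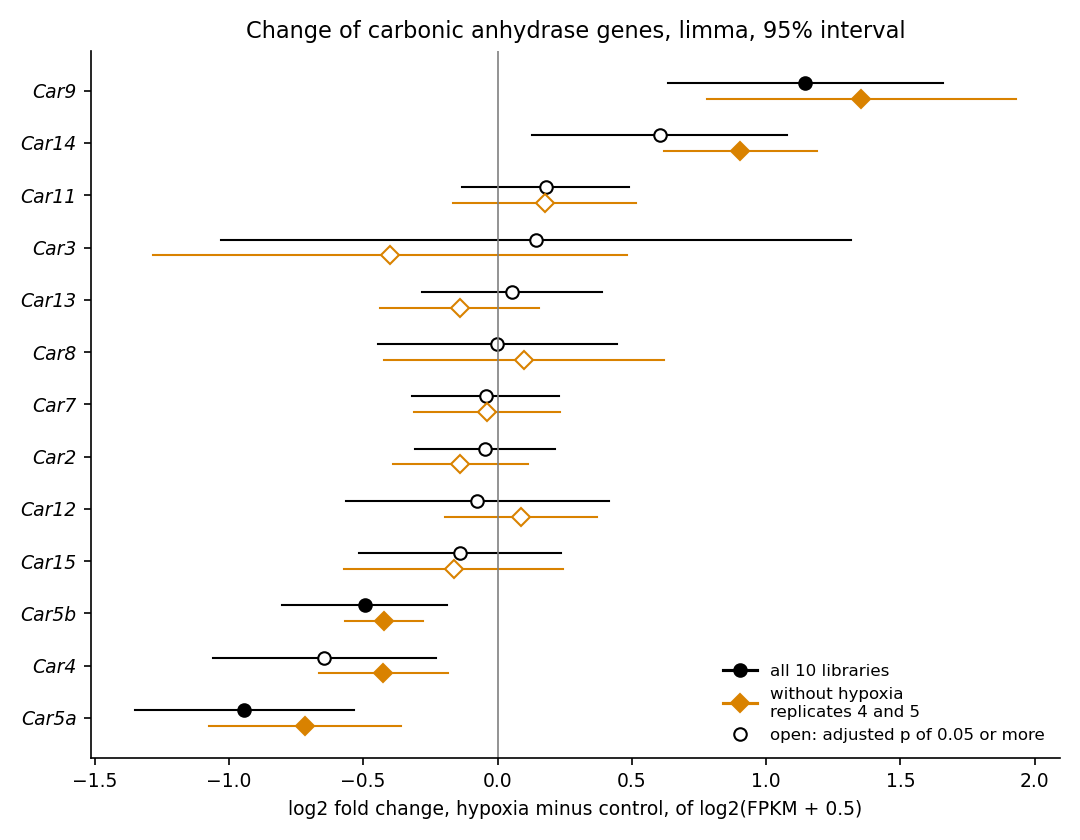
Log2 fold change, hypoxia minus control, on the log2(FPKM + 0.5) scale (horizontal axis) of the 13 carbonic anhydrase genes tested in both fits, with 95% intervals from limma, in black over all 10 libraries and in orange without hypoxia replicates 4 and 5. Filled symbols passed an adjusted p of 0.05, and Car14 and Car4 are filled only in the fit without these 2 libraries.

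The first of the membrane forms, Car9, encodes a transmembrane carbonic anhydrase with its active site outside the cell. It rose in hypoxia. Its level was 12.9, 10.04, 5.57, 5.70 and 6.55 FPKM in hypoxia replicates 1 to 5, against 3.63, 3.52, 4.11, 2.29 and 2.79 FPKM in control replicates 1 to 5. Every hypoxia library was above every control library, and hypoxia replicates 1 and 2 were the highest. The means were 8.14 ± 3.20 FPKM in hypoxia and 3.27 ± 0.720 FPKM in controls (SD, n = 5 each), and the log2 fold change was 1.15 (SE 0.232, limma adjusted p = 0.0131). Without hypoxia replicates 4 and 5 it was 1.35 (adjusted p = 0.0128), and the call held in each of the 10 fits that left out 1 library, with adjusted p from 0.0116 to 0.0356. The levels rested on 220 to 519 reads per hypoxia library and 96 to 159 per control library. Car9 (ENSMUSG00000028463) lies on chromosome 4 from 43506966 to 43513729 on the plus strand of GRCm38. The antisense gene Gm12454 shares 1782 bases with its first part. The sources used here do not say whether the counting used strand, so reads from the shared bases may not be assignable. Gm12454 was at 1.51 ± 0.717 FPKM in hypoxia and 2.32 ± 0.438 FPKM in controls (SD, n = 5 each, log2 fold change -0.55, adjusted p = 0.145). Its sign was opposite to that of Car9.

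Car14, a transmembrane form known from the proximal tubule of the mouse, was at 55.8, 54.0, 50.4, 40.3 and 24.6 FPKM in hypoxia replicates 1 to 5, against 25.8, 31.0, 25.4, 24.5 and 36.2 FPKM in control replicates 1 to 5. Hypoxia replicates 1 to 4 were above every control, and hypoxia replicate 5 lay among the lowest controls. Over all libraries the log2 fold change was 0.60 (SE 0.215, 95% interval 0.13 to 1.08, limma adjusted p = 0.0939). Without hypoxia replicates 4 and 5, Car14 averaged 53.4 ± 2.73 FPKM in hypoxia (SD, n = 3) and 28.6 ± 4.97 FPKM in controls (SD, n = 5), and it rose by 0.90 on the log2 scale (SE 0.126, limma adjusted p = 0.00377). Hypoxia replicate 5 decided the call, since leaving it out alone gave 0.80 (adjusted p = 0.00405). That library also had the lowest summed proximal tubule markers (1936 FPKM), the red cell and B cell markers given above and the lowest Car4, Car5b and Car12, and the part of its makeup in the Car14 value was not tested. Car14 (ENSMUSG00000038526, chromosome 3 from 95897768 to 95904691, minus strand) shares 521 bases at its 3′ end with Aph1a on the opposite strand. Aph1a was at 25.0 ± 3.75 FPKM in hypoxia and 25.9 ± 2.59 FPKM in controls (SD, n = 5 each, adjusted p = 0.757).

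Car4 encodes a form tied to the outer face of the membrane by a lipid anchor and is known for the reclaiming of bicarbonate in the proximal tubule. It was at 63.4, 62.1, 63.6, 57.4 and 32.1 FPKM in hypoxia replicates 1 to 5, against 85.3, 95.3, 81.5, 69.1 and 95.8 FPKM in control replicates 1 to 5. Every hypoxia library was below every control library, and hypoxia replicates 1 to 3 lay close together. The means were 55.7 ± 13.4 FPKM in hypoxia and 85.4 ± 11.01 FPKM in controls (SD, n = 5 each), and the log2 difference of -0.64 (SE 0.188, limma adjusted p = 0.0509) was just outside the threshold. Car4 fell by 0.43 on the log2 scale once hypoxia replicates 4 and 5 were left out (SE 0.107, adjusted p = 0.0339). Leaving out hypoxia replicate 5 alone gave -0.46 (adjusted p = 0.0112), and leaving out any other single library gave adjusted p from 0.0527 to 0.117. Car4 also passed with a pseudocount of 0.1 (adjusted p = 0.0487) and with a filter at 2 FPKM (adjusted p = 0.0404). It did not pass with no filter (adjusted p = 0.103), the replicate block (0.101) or rescaling without the 50 most abundant genes (0.0844). Nor did it pass with plain variances (0.0590), a pseudocount of 1 (0.0519) or median-of-ratios scaling (0.0512). limma voom on reads recovered from the FPKM called Car4 lower (-0.58, adjusted p = 0.0421) and Car14 higher (0.68, adjusted p = 0.0475). In the other alternatives that kept all libraries Car14 did not pass, with limma adjusted p from 0.0761 to 0.184. Car4 (ENSMUSG00000000805) lies on chromosome 11 from 84957786 to 84966044 on the plus strand.

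Car14 and Car4 thus differed in opposite directions, and their ratio within a library does not depend on how libraries are scaled to each other. The ratio of Car14 FPKM to Car4 FPKM was 0.880, 0.869, 0.793, 0.702 and 0.764 in hypoxia replicates 1 to 5, against 0.302, 0.326, 0.311, 0.355 and 0.378 in control replicates 1 to 5. It averaged 0.802 ± 0.0743 in hypoxia and 0.334 ± 0.0316 in controls (SD, n = 5 each). All 5 hypoxia libraries, replicates 4 and 5 included, were above all 5 controls. The pair was chosen after the values were seen, so the ratio is given as a description with no test. A ratio shows unequal change and not which of the 2 genes changed.

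**Figure D3:**
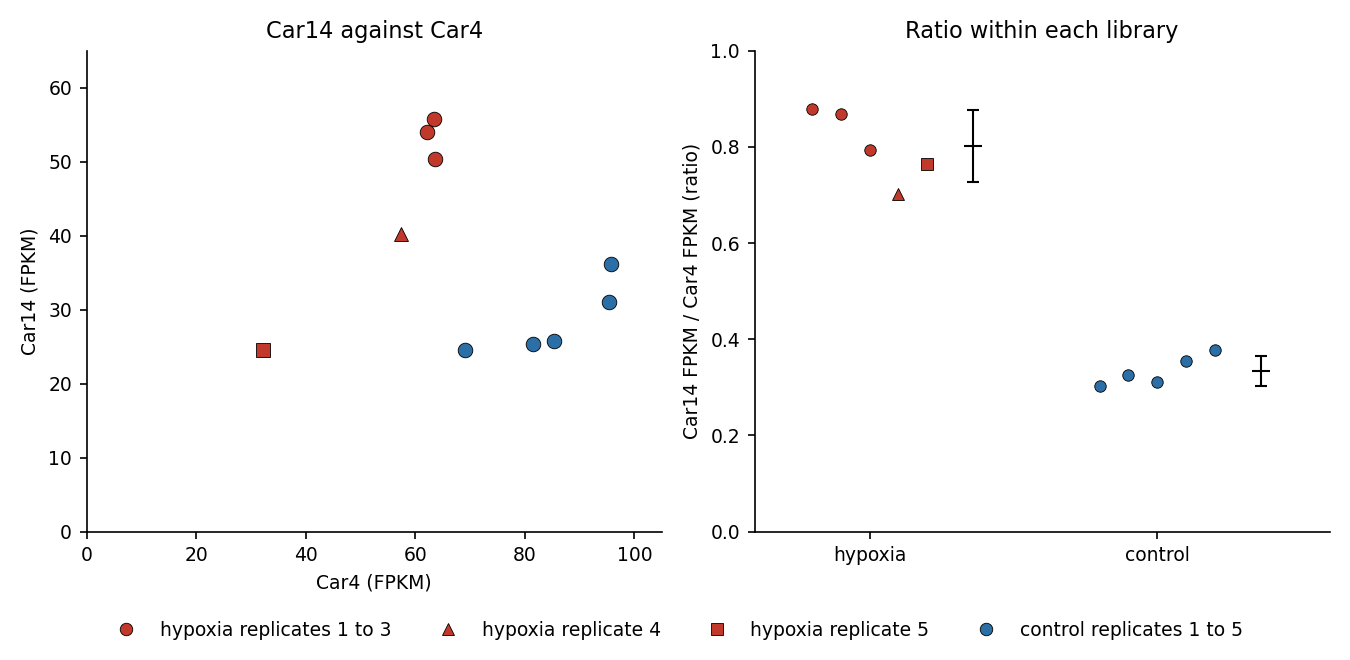
Car14 against Car4 in FPKM for each library (left) and the ratio of Car14 to Car4 within each library with mean and SD of 5 libraries (right). Hypoxia replicate 5 is low in both genes, yet its ratio of 0.764 lies with the other hypoxia libraries and above the highest control at 0.378.

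Car12 encodes a further transmembrane form with an outside active site and, like Car9, is known in human cells as a gene induced by low oxygen. It was at 42.4, 45.6, 50.6, 53.8 and 22.1 FPKM in hypoxia replicates 1 to 5, against 47.7, 46.0, 37.9, 35.7 and 51.2 FPKM in control replicates 1 to 5. The groups overlapped, and hypoxia replicate 5 was the lowest of all. The log2 fold change was -0.08 (95% interval -0.57 to 0.41, limma adjusted p = 0.842), and 0.09 without hypoxia replicates 4 and 5 (95% interval -0.19 to 0.37, adjusted p = 0.689). Car15, a lipid-anchored form, rested on only 11 to 22 reads per hypoxia library and 11 to 24 per control library. It was at 0.490 ± 0.121 FPKM in hypoxia and 0.592 ± 0.143 FPKM in controls (SD, n = 5 each, log2 fold change -0.14, adjusted p = 0.606), and its log2 fold change was -0.16 without hypoxia replicates 4 and 5 (adjusted p = 0.596). Car15 lies within Gm20518 on the same strand (3088 bases shared), so the assignment of its reads is uncertain.

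The mitochondrial forms were both lower. Car5b encodes a carbonic anhydrase of the mitochondrial matrix and was at 13.9, 12.6, 14.1, 16.3 and 8.63 FPKM in hypoxia replicates 1 to 5, against 19.4, 18.8, 18.3, 17.2 and 17.7 FPKM in control replicates 1 to 5. No hypoxia library reached the lowest control. Its means were 13.1 ± 2.84 FPKM in hypoxia and 18.3 ± 0.842 FPKM in controls (SD, n = 5 each), and it fell by 0.49 on the log2 scale (SE 0.139, limma adjusted p = 0.0451). It fell by 0.42 without hypoxia replicates 4 and 5 (SE 0.0644 and adjusted p = 0.00539). The call was near the threshold. It was lost without hypoxia replicate 1 (adjusted p = 0.0642), 2 (0.0682) or 3 (0.0642) and without control replicate 1 (0.107), 2 (0.0988), 3 (0.0910), 4 (0.0678) or 5 (0.0819), with the log2 fold change between -0.58 and -0.36 over all 10 such fits. It was also lost with the replicate number as a block (adjusted p = 0.0742) and with libraries rescaled without the 50 most abundant genes (-0.43, adjusted p = 0.0925). Car5b (ENSMUSG00000031373) lies on chromosome X from 163976822 to 164027997 on the minus strand.

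Car5a, the second mitochondrial form and best known from liver, is not among the 10 genes. It was at 1.49, 1.27, 1.00, 0.80 and 0.574 FPKM in hypoxia replicates 1 to 5, against 2.23, 2.09, 3.33, 2.38 and 1.98 FPKM in control replicates 1 to 5. The groups did not overlap. It fell by 0.94 on the log2 scale (SE 0.184, limma adjusted p = 0.0114), and by 0.72 without hypoxia replicates 4 and 5 (adjusted p = 0.0223). The call held in all 10 fits without 1 library (adjusted p from 0.00812 to 0.0318), on 14 to 35 reads per hypoxia library and 44 to 75 per control library.

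Among the cytosolic forms, Car2 is the abundant enzyme of the tubule and of intercalated cells, the acid-secreting and base-secreting cells of the collecting duct. It was at 176.3, 161.6, 167.4, 182.0 and 215.1 FPKM in hypoxia replicates 1 to 5, against 199.999, 192.7, 173.6, 151.9 and 214.8 FPKM in control replicates 1 to 5. The groups overlapped across nearly their whole range. The log2 fold change was -0.04 (95% interval -0.31 to 0.22, limma adjusted p = 0.824), and -0.14 without hypoxia replicates 4 and 5 (95% interval -0.39 to 0.11, adjusted p = 0.454). Car2 was the most abundant member in every library but hypoxia replicate 4, where Car3 was at 183.1 FPKM.

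Car3 encodes a cytosolic form with low activity that is abundant in fat and slow muscle. It was at 54.6, 19.4, 28.5, 183.1 and 35.6 FPKM in hypoxia replicates 1 to 5, against 61.0, 39.9, 42.5, 21.6 and 54.3 FPKM in control replicates 1 to 5. Apart from hypoxia replicate 4 the groups overlapped. The log2 fold change was 0.14 (SE 0.531, limma adjusted p = 0.877), and -0.40 without hypoxia replicates 4 and 5 (SE 0.388, adjusted p = 0.541). The 10 fat tissue markers summed to 136.3 to 760.9 FPKM in hypoxia and 243.7 to 318.7 FPKM in controls, with the highest sum in hypoxia replicate 4, where Cfd was at 508.4 and Lpl at 66.9 FPKM. Adipoq, which encodes the fat hormone adiponectin, was at 39.7 FPKM there and at 14.6 FPKM or less in the other 9 libraries, and was picked with its values in view. Lpl is also made by kidney cells, and it and Ucp1 were the 2 of 9 tested fat markers that passed the gene test, both lower. Leaving out hypoxia replicates 4 and 5, Lpl was the 1 of 9 that passed. Among all tested genes 7.79% were lower, or 7.75% without those 2 libraries. Skeletal muscle markers summed to at most 1.68 FPKM in any library, led by Mylpf and Casq1, and 2 of the 11 (Myh2 and Tnnc2) were at 0 in all libraries. The part of fat tissue in the Car3 values was not tested.

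**Figure D4:**
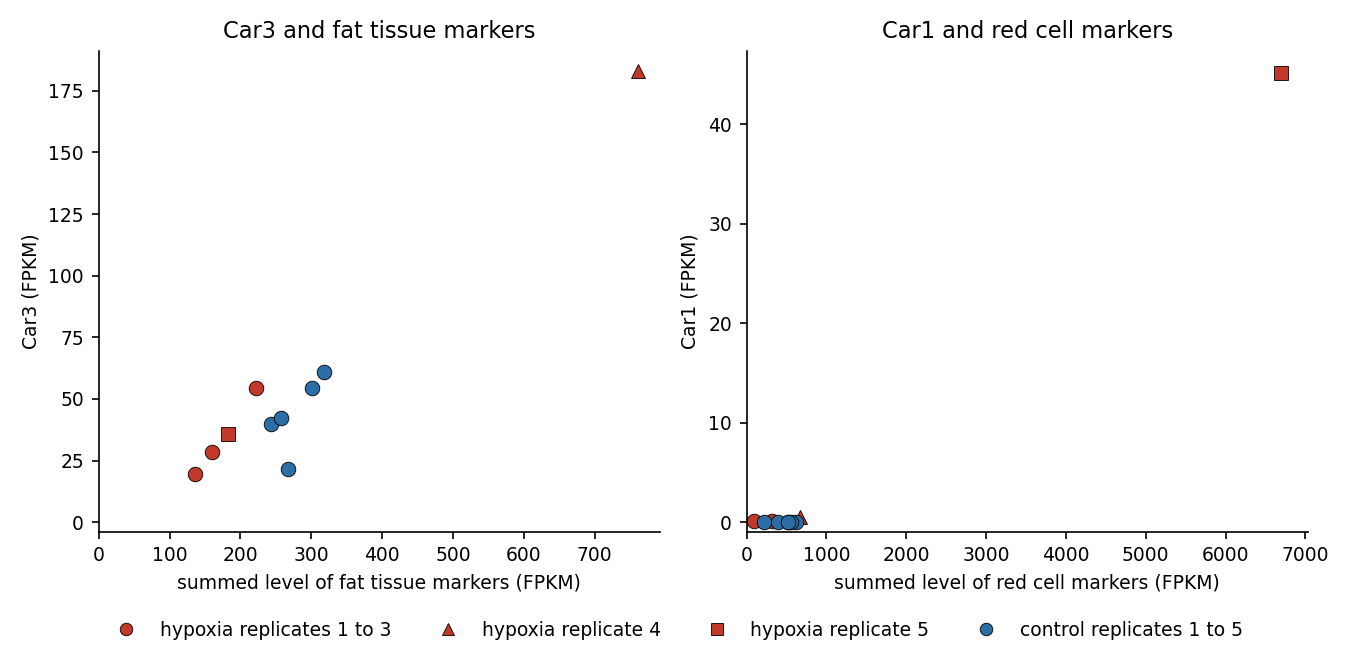
Car3 against the summed level of 10 fat tissue markers (left) and Car1 against the summed level of 7 red cell markers (right), all in FPKM, 1 point per library. Car3 and the fat markers were highest in hypoxia replicate 4, and Car1 and the red cell markers in hypoxia replicate 5.

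Car13, another cytosolic form, was at 1.89 ± 0.478 FPKM in hypoxia and 1.79 ± 0.313 FPKM in controls (SD, n = 5 each), with a log2 fold change of 0.05 (95% interval -0.28 to 0.39, limma adjusted p = 0.838), and -0.14 without hypoxia replicates 4 and 5 (adjusted p = 0.521). Car8 encodes a related protein that lacks enzyme activity. It was at 2.47 ± 0.409 FPKM in hypoxia and 2.55 ± 0.889 FPKM in controls (SD, n = 5 each, log2 fold change -0.00053, 95% interval -0.45 to 0.44, adjusted p = 0.999), and its log2 fold change was 0.10 without hypoxia replicates 4 and 5 (adjusted p = 0.817). Car8 ranged from 1.82 to 2.92 FPKM in hypoxia and more widely, from 1.38 to 3.71 FPKM, in controls.

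Car1, the main carbonic anhydrase of red cells besides Car2, was at 45.1 FPKM in hypoxia replicate 5, on 1027 reads. It was at 0.0457, 0.132, 0.0935 and 0.497 FPKM in hypoxia replicates 1 to 4 and at most at 0.0488 FPKM in the controls, on 11 reads or fewer in each of these 9 libraries. The red cell markers were highest in the same library, with Hbb-bs at 2591 and Hba-a1 at 2519 FPKM, as were the B cell markers. Its high mean over the 10 libraries comes from that library (limma adjusted p = 0.337), and without hypoxia replicates 4 and 5 it did not pass the filter. Car7 and Car11 did not pass the gene test, with log2 fold changes of -0.04 (adjusted p = 0.835) and 0.18 (adjusted p = 0.413), or -0.04 (adjusted p = 0.864) and 0.18 (adjusted p = 0.488) without those 2 libraries. Car6 was detected by 1 read in 1 hypoxia library, and Car10 by none in any of the 10 libraries.

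The 4 genes Car13, Car1, Car3 and Car2 lie side by side on chromosome 3 within 259044 bases from 14641727 to 14900770, with 13750 bases between Car3 and Car2. None of these 4 passed the gene test (adjusted p = 0.838, 0.337, 0.877 and 0.824). Their libraries of highest level differed, with Car3 and Car13 highest in hypoxia replicate 4 and Car1 and Car2 highest in hypoxia replicate 5.

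Carbonic anhydrases act together with transporters that carry bicarbonate and protons across the tubule membrane. Of 15 tested transporters and scaffolds of this kind, 1 passed, lower, and their median log2 fold change was 0.03. Among all tested genes 3.66% passed as higher and 7.79% as lower at this adjusted threshold. In the same limma fit 4 of the 15 had an unadjusted p under 0.05. The share of all tested genes under that unadjusted p was not computed, here or for the lists below. Such a count can therefore not be read as an excess. Slc9a3, which encodes the sodium-proton exchanger of the proximal tubule's apical membrane, was at 32.7, 28.8, 29.5, 28.3 and 25.4 FPKM in hypoxia replicates 1 to 5, against 39.3, 34.6, 33.9, 36.8 and 33.6 FPKM in control replicates 1 to 5. It fell by 0.30 on the log2 scale (limma adjusted p = 0.0377), with no overlap of the groups. With hypoxia replicates 4 and 5 left out it was no longer past the threshold (-0.23, adjusted p = 0.0784). It was also lost in each fit without 1 library (adjusted p from 0.0555 to 0.0985) except those without hypoxia replicate 1 or 5. Slc4a4, the sodium-bicarbonate cotransporter of the basolateral membrane, had a log2 fold change of -0.06 (adjusted p = 0.856), a gene picked with its values in view.

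Of 11 tested markers of intercalated cells, 0 passed with limma over all libraries, 1 had an unadjusted p under 0.05, and 0 passed with limma voom on reads recovered from the FPKM. Their median log2 fold change was 0.08. They summed to 237.2, 240.5, 278.8, 257.7 and 151.8 FPKM in hypoxia replicates 1 to 5, against 207.8 to 218.0 FPKM in controls. Hypoxia replicates 1 to 4 were thus above every control, and hypoxia replicate 5 was the lowest of all. The most abundant were Atp6v0a4, a proton pump subunit, with a log2 fold change of 0.14 (adjusted p = 0.385), and Rhcg, an ammonia channel, with 0.08 (adjusted p = 0.779). Without hypoxia replicate 5 alone, 2 markers passed, both higher, and Atp6v0a4 was among them (0.23, limma adjusted p = 0.0363). In that fit 2724 of all 14804 tested genes passed, 1094 of them higher. Without hypoxia replicates 4 and 5 the median was 0.21 and 1 passed, Atp6v1b1, a subunit of the same pump, at 0.26 (adjusted p = 0.0200). Of all tested genes 11.5% passed over all libraries, 3.66% higher. The shares were 12.3% and 4.53% without those 2 libraries.

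Car9 was set beside 14 tested HIF target genes, of which 2 were higher and 4 lower, with a median log2 fold change of -0.10. Among all tested genes 3.66% were higher and 7.79% lower. Pdk1, a kinase that inhibits pyruvate dehydrogenase, rose by 0.58 (adjusted p = 0.00140) and Bnip3, a mitophagy receptor, by 0.61 (adjusted p = 0.00603), against 1.15 for Car9. Higd1a, a mitochondrial protein, fell by 1.03 (adjusted p = 0.000772) and P4ha1, a collagen prolyl hydroxylase, by 0.87 (adjusted p = 0.00117). The counts were again 2 higher and 4 lower without hypoxia replicates 4 and 5, with a median of -0.03. All log2 fold changes here are hypoxia minus control from limma with Benjamini-Hochberg adjustment.

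Markers of other nephron segments did not move together. Of the tested genes, 1 of 8 thick ascending limb markers was lower (median log2 fold change -0.18), 2 of 8 distal convoluted tubule markers were lower (-0.06) and 1 of 8 principal cell markers was higher (-0.04). Leaving out hypoxia replicates 4 and 5, 1 thick ascending limb marker was lower (median -0.01), 2 distal convoluted tubule markers were higher and 2 lower (-0.02), and 1 principal cell marker was higher (0.11). Among all tested genes 3.66% were higher and 7.79% lower, or 4.53% and 7.75% without those 2 libraries. Umod and Slc12a1 led the first list, Calb1 and Slc12a3 the second and Aqp2 and Hsd11b2 the third, as levels. Urothelium markers, led by Upk1a and Upk3a, summed to 4.43 to 15.1 FPKM in hypoxia and 7.68 to 39.99 FPKM in controls, and 0 of 5 tested with limma passed (1 at an unadjusted p under 0.05). Pancreas acinar markers summed to 23.2 to 53.6 FPKM in hypoxia and 32.4 to 49.7 FPKM in controls, nearly all of it Cela1 except in hypoxia replicate 5, where Ctrb1 was at 15.4 FPKM.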

How the data were processed

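RNA was sequenced from 5 hypoxia and 5 control kidney libraries, and the authors deposited 1 table with an FPKM value per gene and library, per the file headers. HISAT2 2.0.5 is listed in the submitters' processing notes. The notes list a human build, but the gene IDs and coordinates of the table are of mouse GRCm38. No label or header names the counting tool or its use of strand. FPKM times gene length and library size gave whole reads for 100% of values (tolerance 0.05), and depth is the sum of these reads. The floor of 3 reads covers counting error only, while the 95% intervals of fold changes come from limma and reflect the spread between libraries.

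log2(FPKM + 0.5) of the 15264 genes averaging 0.5 FPKM or more was fitted with limma 3.58.1 (R 4.3.3) with trended, robust variances and Benjamini-Hochberg adjustment, checked on simulated data. Besides the 10 genes and their 6 relatives, genes were named by rule. These were from each functional list, of members past the threshold, up to 4 by lowest p, the 2 most abundant where none passed, and the 2 most abundant of each cell type list where it stood highest. The members and lists were chosen with earlier results of these data known. Alternatives changed the pseudocount, filter, scaling, error model, replicate block and libraries. Motifs and figures were made with Python 3.11.15 and matplotlib 3.10.9.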

Additional observations from a re-analysis of the deposited data

Results flagged for a closer look

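In 29 groups of 5 values the highest or lowest library was set against the others by Dixon's test, which marks about 1 in 20 groups by chance, and 5 values stood apart. Car3 in hypoxia replicate 4 was at 183.1 FPKM, with the nearest other hypoxia library at 54.6 FPKM. Car4 in hypoxia replicate 5 was at 32.1 FPKM, with the nearest at 57.4 FPKM. Car1 in hypoxia replicate 5 was at 45.1 FPKM, with the nearest at 0.497 FPKM. Car1 in control replicate 2 was at 0.0488 FPKM and Car6 in hypoxia replicate 1 at 0.0314 FPKM, each on 1 read where the other libraries of the group had none.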

How the results depend on the processing

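The calls of Car9 and Car5a held under every alternative in which they were tested, Car5a not being tested at a filter of 2 FPKM. At that filter only 1 of the other family genes was tested, Car1, and it did not pass. Of the 10 carbonic anhydrases, 1 passed with no filter, with rescaling without the 50 most abundant genes, with plain variances and with the replicate block, against 3 with a pseudocount of 0.1 or a filter at 2 FPKM, 4 with voom and 4 without hypoxia replicates 4 and 5, and 1 to 4 when 1 library was left out. Over all genes 966 passed with no filter and 999 with the block, and 824 to 2724 without 1 library. The split was 559 higher and 1189 lower, against 842 and 752 after rescaling and 782 and 927 (1709 genes) with voom. Of the transporters 0 passed with no filter, rescaling, the block, voom or without hypoxia replicates 4 and 5, and 0 to 3 without 1 library. Of the intercalated cell markers 1 passed without hypoxia replicates 4 and 5, and 0 to 2 without 1 library. Of the HIF targets 6 passed, 7 with rescaling, plain variances or the block, and 6 to 7 without 1 library.

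Signs turned for genes that never passed, most of them near 0. Car3, at 0.14 (SE 0.531) over all libraries, ranged most widely. Car2 was at 0.022 with rescaling and 0.026 with voom, and Car7 at 0.00045 and 0.0032. Car8 was at 0.0078 with a pseudocount of 0.1, 0.014 with median-of-ratios scaling, 0.054 with rescaling, 0.083 with voom and 0.10 without hypoxia replicates 4 and 5. Without those libraries Car3 was at -0.40, Car12 at 0.088 and Car13 at -0.14. Without 1 library the log2 fold changes ran from -0.12 to 0.0083 for Car2, -0.35 to 0.45 for Car3, -0.16 to 0.13 for Car8, -0.17 to 0.14 for Car12, -0.037 to 0.14 for Car13, -0.10 to 0.014 for Car7 and -0.019 to 0.24 for Rhcg. The cause was not tested. Same-numbered samples correlated between -0.08 and 0.09, which gave no sign of pairing, and 2 of 5 matched their own number best. So few samples cannot show that the numbers do not pair them.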

Other observations

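Of the 26 tested genes that lie next to the 16 carbonic anhydrase genes, 3 were higher and 2 lower in hypoxia. Among all tested genes 11.5% passed, 3.66% higher and 7.79% lower. BC028528, 5763 bases from Car14, was at 1.16 FPKM in hypoxia and 0.436 FPKM in controls (log2 fold change 0.81, limma adjusted p = 0.0154), and 0.63 without hypoxia replicates 4 and 5 (adjusted p = 0.0374). Slc7a5, an amino acid transporter gene 8432 bases from Car5a, was at 3.72 FPKM in hypoxia and 0.750 FPKM in controls (1.47, adjusted p = 0.0405), and at 0.76 on the log2 scale without hypoxia replicates 4 and 5 (adjusted p = 0.00850). Dbp, a clock-controlled transcription factor gene 406 bases from Car11, was at 26.8 FPKM in hypoxia and 11.5 FPKM in controls (1.23, adjusted p = 0.0427), and lost its call without hypoxia replicates 4 and 5 (adjusted p = 0.0579). Eno1, an enolase gene of glycolysis 35389 bases from Car6, was at 118.2 FPKM in hypoxia and 163.0 FPKM in controls (-0.47, adjusted p = 0.0131), or -0.39 without those 2 libraries (adjusted p = 0.0106). A locus with no gene name 154475 bases from Car8 was at 3.66 FPKM in hypoxia and 6.32 FPKM in controls (-0.72, adjusted p = 0.00725), or -0.56 without them (adjusted p = 0.0124). These neighbours were named after their values were seen.

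The ratio of Car9 FPKM to Car12 FPKM was 0.303, 0.220, 0.110, 0.106 and 0.296 in hypoxia replicates 1 to 5, against 0.0760, 0.0765, 0.108, 0.0642 and 0.0546 in control replicates 1 to 5. The groups met between hypoxia replicate 4 and control replicate 3, and the pair was chosen after the values were seen.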
